A study of Rattus norvegicus with 6 samples.

Results

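Genes that mark testicular macrophages and other myeloid cells were followed in rat testis by RNA sequencing (RNA-Seq). The 40 genes were taken from the deposited table by their symbols, out of 35291 genes and assembled loci, and each symbol labelled 1 gene. Testes came from 3 diabetic (DM) and 3 non-diabetic adult males of the outbred Sprague-Dawley strain. Rats of the diabetic group had been fed a high-fat diet for 1 month and then injected once with streptozotocin (STZ), a toxin of the insulin-producing beta cells, at 35 mg/kg. The non-diabetic rats received citrate buffer. Neither the age of the rats in weeks nor whether the controls had the same diet is given in the sources used here. The tissue was whole testis taken 8 weeks after the injection, so each library held RNA of germ cells, Sertoli cells and all cells of the interstitium. Each sample is described as 1 rat, since the labels number the samples as replicates and mention no pooling, and p-values measure the spread between these samples.

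Macrophages are the most common leukocytes of the testis. They lie in the interstitium, in close contact with the testosterone-producing Leydig cells, and around the seminiferous tubules. Their survival depends on the receptor CSF1R and its ligands CSF1 and IL-34, and their identity on the transcription factor PU.1, the product of Spi1. They take up apoptotic material and lipoproteins through scavenger receptors, make complement C1q, and signal through small membrane adaptors that carry tyrosine activation motifs. Resident testicular macrophages are known for the receptors CD163 and MRC1 and for a weak inflammatory response.

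The values are fragments per kilobase of transcript, scaled to library size (FPKM), which can be compared between genes because they are divided by transcript length. Differences are given as log2 fold changes of FPKM + 0.1, diabetic minus non-diabetic, from limma, and they understate the change of low genes. Since whole testis was sequenced, fewer myeloid cells and less RNA per cell cannot be told apart. The depth in reads is unknown. Ratios shared by 32 to 58 genes below 1 FPKM gave relative depths of 0.966 to 1.09 in the diabetic and 0.893 to 1.02 in the non-diabetic libraries.

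Genes of the list were present in every testis, most of them at a low level. Of the 40 members, 36 were above 0 FPKM in all 6 rats. Marco, a scavenger receptor of splenic and alveolar macrophages, was listed at 0 in all of them, and Trem2, Ncf4 and Lst1 were at 0 in some. Aif1 (IBA1, an actin-binding protein) had by far the highest level, with a mean of 96.2 FPKM over the 6 rats, and alone held 57.7% of the summed mean FPKM of the members. Which cells of the whole testis made the Aif1 RNA was not tested. The mannose receptor gene Mrc1 followed with 21.2 FPKM, then the actin-bundling gene Lcp1 with 7.91 FPKM and the lysozyme gene Lyz2 with 7.60 FPKM. The other 36 members had means between 0 and 3.63 FPKM.

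Many of the members were lower in the diabetic testes, whereas Aif1 and Mrc1, the most abundant, did not pass the test. Of the 39 members above 0 in any rat, 38 had a log2 fold change below 0, against 55.3% of the 30782 genes above 0 in any rat. Their median log2 fold change was -0.51, beside -0.025 over all of these genes. For 15 of the 39, each diabetic rat was below each non-diabetic rat, which held for 7.46% of all genes. The opposite order was found for 0 members and 4.02% of all genes. In a limma fit of all 30782 genes, 12 of the 39 were lower at an unadjusted p-value below 0.05, against 4.34% of all genes, and 0 were higher, against 2.3% of all genes.

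In 27 members the mean over the 6 rats reached 0.5 FPKM, and in 13 it did not. Differences given below come from the fit of the 20338 genes that reached it, unless a gene is said to lie below 0.5 FPKM. Of the 27, Aif1 alone had a log2 fold change above 0, where 55.6% of all genes tested were below 0. In that fit 12 of the 27 members were lower at an unadjusted p-value below 0.05, where 4.99% of all genes tested were lower, and 0 were higher, where 2.47% of all genes were. The 12 were Laptm5, Lyz2, Tyrobp, Csf1r, Cd53, Cybb, C1qa, Clec4a3, Cd48, Cd68, Ptprc and Clec10a. A difference of 1 or more on the log2 scale, the further criterion, was reached by 3 of them, Laptm5, Tyrobp and Clec4a3, against 0.846% of all genes tested that were lower by it. Adjusted p-values (Benjamini-Hochberg, over the 20338 genes) are given for the genes that follow, and in limma 0 members were below 0.05, where 0.0344% of all genes were. For many of the single genes that did not reach the unadjusted threshold, the 95% confidence interval of the log2 fold change is given. For others only the means or the values of each rat are given. Groups that overlap do not show that a gene was unchanged. The members had been chosen with earlier results of these rats known, so these counts describe them and are no independent evidence of a direction. The exact permutation test gave a two-sided p of 0.1, its minimum with 3 rats per group, for each of the 15 members whose groups did not overlap.

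**Figure D1:**
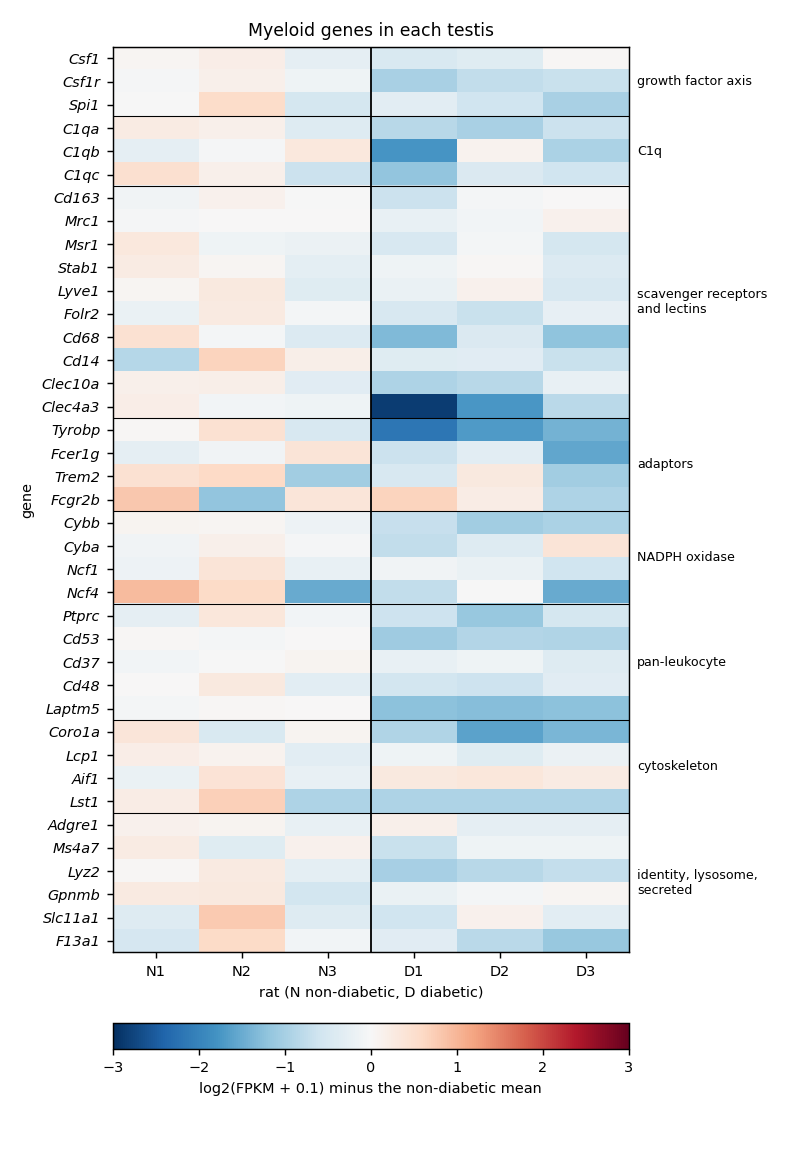
Heat map of the 39 members above 0 FPKM in any rat (rows, by function) in the 3 non-diabetic (N1 to N3) and 3 diabetic (D1 to D3) rats (columns). Colour is log2(FPKM + 0.1) minus the non-diabetic mean of the gene, with blue for lower and red for higher values. The 3 diabetic columns are mostly blue, the rows of Laptm5, Cd53, Tyrobp and Coro1a evenly so, while Mrc1, Adgre1 and Aif1 are pale.

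In the growth factor axis, the receptor gene was lower and its ligand genes did not pass the test. Csf1r (ENSRNOG00000018414), the receptor that sustains macrophages, was at 1.10, 1.32 and 1.38 FPKM in the diabetic testes, compared with 2.22, 2.54 and 2.06 FPKM in the non-diabetic testes. The groups did not overlap, and the mean went from 2.27 ± 0.244 to 1.27 ± 0.144 FPKM (SD, n = 3 each). This amounted to -0.80 on the log2 scale (standard error 0.17, limma, adjusted p = 0.336). Csf1 (ENSRNOG00000018659), the ligand, was at 0.736, 0.790 and 1.07 FPKM in diabetic against 1.10, 1.22 and 0.838 FPKM in non-diabetic testes. Its groups overlapped, with a log2 fold change of -0.26 and a 95% confidence interval of -0.85 to 0.34. Il34, which encodes the other ligand of the receptor, was at 3.94, 4.26 and 3.80 FPKM in diabetic against 3.23, 4.15 and 3.70 FPKM in non-diabetic testes, and these groups overlapped as well (log2 fold change 0.12, 95% confidence interval -0.18 to 0.42). Spi1, the gene of PU.1, lay below 0.5 FPKM, with means of 0.102 and 0.222 FPKM in diabetic and non-diabetic rats and groups that overlapped.

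Complement C1q is the recognition unit of the classical pathway, built from the chains A, B and C, and tissue macrophages are its main source. The genes C1qb, C1qc and C1qa neighbour each other in the rat annotation (RefSeq, assembly GRCr8). C1qa (ENSRNOG00000012807) was at 1.38, 1.24 and 1.58 FPKM in the diabetic testes, compared with 3.04, 2.81 and 1.91 FPKM in the non-diabetic testes. All diabetic rats were below all non-diabetic rats, with a log2 fold change of -0.82 and a standard error of 0.21 (limma, adjusted p = 0.438). C1qc (ENSRNOG00000012804) was at 1.21, 2.12 and 1.88 FPKM in diabetic against 4.05, 3.25 and 1.83 FPKM in non-diabetic testes. Non-diabetic replicate 3 lay within the diabetic range, and the log2 fold change of -0.74 missed the threshold (95% confidence interval -1.5 to 0.023). C1qb (ENSRNOG00000012749) was at 0.366, 1.61 and 0.726 FPKM in diabetic against 1.22, 1.45 and 1.90 FPKM in non-diabetic testes, where diabetic replicate 2 lay within the non-diabetic range. Its log2 fold change was -0.88 with a wide 95% confidence interval of -1.97 to 0.21. The estimates of the chains were alike in size, between -0.88 and -0.74, and the summed C1q level of each diabetic rat, 2.96 to 4.97 FPKM, was below that of each non-diabetic rat, 5.64 to 8.31 FPKM. Without non-diabetic replicate 3 the log2 fold change of C1qc was -1.06 and passed the threshold, and without diabetic replicate 2 that of C1qb was -1.37 and that of C1qc -0.89, which both passed. Without diabetic replicate 1 they were -0.43 for C1qb and -0.52 for C1qc, without non-diabetic replicate 1 that of C1qc was -0.50, and none of these passed.

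Of the further complement genes, C1r and C1s, the proteases that bind to C1q and that stromal and liver cells are known to make, were both lower. C1r was at 9.14, 7.69 and 9.66 FPKM in the diabetic testes, compared with 13.4, 15.4 and 11.3 FPKM in the non-diabetic testes, so that the groups were apart (log2 fold change -0.59, limma, adjusted p = 0.400). C1s differed by -0.47 on the log2 scale with groups that overlapped (limma, adjusted p = 0.668). Cfd, the factor D protease of the alternative pathway, went from 2.30 ± 0.572 to 1.0 ± 0.439 FPKM (SD, n = 3 each, limma, adjusted p = 0.492). Among the 9 rows tested from a list of 11 complement genes, 4 were lower at an unadjusted p-value below 0.05 in limma (C1r, C1s and Cfd among them), 0 were higher and 5 did not pass. Of all genes tested, 4.99% were lower and 2.47% higher at that threshold. The membrane inhibitors Cd55 and Cd59 had means of 21.8 and 51.4 FPKM with diabetes and of 23.3 and 57.3 FPKM without it, and their groups overlapped.

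Scavenger receptors and endocytic lectins were divided. Mrc1, Cd163 and Stab1 had groups that overlapped, whereas those of Folr2, described below, did not. Mrc1 (ENSRNOG00000018251), the mannose receptor, was at 18.5, 20.4 and 23.5 FPKM in the diabetic testes, compared with 21.2, 21.7 and 22.0 FPKM in the non-diabetic testes. The diabetic rats lay on both sides of the narrow non-diabetic range, and the log2 fold change of -0.064 had a 95% confidence interval of -0.29 to 0.16. Cd163 (ENSRNOG00000010253), the receptor of haemoglobin-haptoglobin complexes, was at 1.52, 2.35 and 2.44 FPKM in diabetic against 2.26, 2.65 and 2.40 FPKM in non-diabetic testes. Diabetic replicate 1 was the lowest and the others lay within the non-diabetic range (log2 fold change -0.23, 95% confidence interval -0.71 to 0.25). Stab1, a clearance receptor, had means of 1.02 and 1.17 FPKM in diabetic and non-diabetic rats with groups that overlapped.

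Clec4a3, Cd68 and Clec10a were lower. Clec4a3 (ENSRNOG00000010018), a C-type lectin receptor of myeloid cells, was at 0.0660, 0.256 and 0.583 FPKM in the diabetic testes, compared with 1.28, 1.02 and 0.999 FPKM in the non-diabetic testes. The diabetic rats were all below the others but ranged widely among themselves, and the difference was -1.80 on the log2 scale (standard error 0.52, limma, adjusted p = 0.506). It lies between the related genes Clec4a1 and Clec4a2 in the annotation, and reads shared with such relatives could have been assigned to any of them. Cd68 (ENSRNOG00000037563), a lysosomal glycoprotein of macrophages, was at 0.354, 0.736 and 0.389 FPKM in diabetic against 1.44, 0.990 and 0.754 FPKM in non-diabetic testes. The groups were only just apart, since diabetic replicate 2 reached 0.736 FPKM (log2 fold change -0.98, limma, adjusted p = 0.629). Clec10a, a galactose-type lectin, was at 0.687, 0.750 and 1.19 FPKM in diabetic against 1.57, 1.61 and 1.10 FPKM in non-diabetic testes, with groups that overlapped (log2 fold change -0.66, limma, adjusted p = 0.666). Clec10a did not pass in the fits without a minimum level, with a minimum of 1 FPKM or with median-ratio scaling. Its unadjusted p-value was 0.05 or above without each of diabetic replicates 1 and 2 and non-diabetic replicates 1 and 2, and so was that of Cd68 without diabetic replicates 1 and 3 and non-diabetic replicates 1 and 2. The smallest log2 fold change in these fits was -0.76 for Cd68 and -0.52 for Clec10a.

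Folr2, the folate receptor of tissue macrophages, was at 0.523, 0.45 and 0.642 FPKM in diabetic against 0.659, 0.947 and 0.742 FPKM in non-diabetic testes, groups that did not overlap but whose log2 fold change of -0.47 missed the threshold (95% confidence interval -1.13 to 0.20). Cd14, Lyve1 and Msr1 were below 0.5 FPKM on average and their groups overlapped. They are a co-receptor for bacterial lipopolysaccharide, a hyaluronan receptor and the class A scavenger receptor. Their means in the diabetic rats were 0.251, 0.0783 and 0.0445 FPKM, against 0.424, 0.103 and 0.0846 FPKM in the non-diabetic rats. Of the 7 genes tested in this group, 3 were lower and 4 did not pass, where 4.99% of all genes tested were lower.

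Among the signalling adaptors, Tyrobp had one of the largest differences of all members. Tyrobp (ENSRNOG00000020845) encodes DAP12, which links TREM2 and other receptors to the kinase SYK, and was at 0.168, 0.268 and 0.351 FPKM in the diabetic testes, compared with 1.12, 1.56 and 0.756 FPKM in the non-diabetic testes. The highest diabetic value was less than the lowest non-diabetic value, and the mean went from 1.15 ± 0.402 to 0.262 ± 0.0917 FPKM (SD, n = 3 each). The difference on the log2 scale was -1.76 (standard error 0.38, limma, adjusted p = 0.336). Fcer1g (ENSRNOG00000024159), the common gamma chain of Fc receptors and a related adaptor, was at 0.664, 0.855 and 0.307 FPKM in diabetic against 0.886, 1.0 and 1.47 FPKM in non-diabetic testes. These groups did not overlap either, but diabetic replicate 2 and non-diabetic replicate 1 nearly met, and the log2 fold change of -0.84 missed the threshold (95% confidence interval -1.74 to 0.059). Without diabetic replicate 2 it was -1.10 and passed, and without diabetic replicate 3 it was -0.49 and did not pass.

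The receptors of the same group lay below 0.5 FPKM on average. Trem2, a lipid-sensing receptor that needs DAP12, was at 0.0491, 0.154 and 0 FPKM in diabetic against 0.183, 0.211 and 0 FPKM in non-diabetic testes. Fcgr2b, the inhibitory Fc receptor, was at 0.371, 0.247 and 0.0567 FPKM in diabetic against 0.422, 0.0305 and 0.281 FPKM in non-diabetic testes. Both had overlapping groups and did not pass in the fit without a minimum level. The log2 fold change was -0.4053 for Trem2 (95% confidence interval -1.696 to 0.8852) and -0.006937 for Fcgr2b (-1.51 to 1.497). Both intervals were wide. Reads of Fcgr2b may also be shared with related Fc receptor genes.

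The phagocyte NADPH oxidase makes superoxide and consists of a membrane heterodimer, encoded by Cybb and Cyba, and cytosolic regulators, among them those encoded by Ncf1 and Ncf4. Cybb (ENSRNOG00000003622), the catalytic subunit, was at 0.722, 0.537 and 0.580 FPKM in the diabetic testes, compared with 1.30, 1.28 and 1.09 FPKM in the non-diabetic testes. Each diabetic rat was below each non-diabetic rat, and the mean went from 1.22 ± 0.113 to 0.613 ± 0.0967 FPKM (SD, n = 3 each), with a log2 fold change of -0.90 and a standard error of 0.23 (limma, adjusted p = 0.436). Its partner Cyba was at 0.221, 0.309 and 0.604 FPKM in diabetic against 0.399, 0.491 and 0.420 FPKM in non-diabetic testes, with the highest value of all in diabetic replicate 3. Ncf1 was at 0.222, 0.200 and 0.128 FPKM in diabetic against 0.211, 0.352 and 0.199 FPKM in non-diabetic testes and overlapped. Ncf4 was at 0.0712, 0.182 and 0 FPKM in diabetic against 0.446, 0.320 and 0 FPKM in non-diabetic testes, listed at 0 in 1 rat of each group. Cyba, Ncf1 and Ncf4 lay below 0.5 FPKM, so Cybb alone of the 4 oxidase members was in the fit of genes that reached this level. In the fit without a minimum level the others did not pass. The log2 fold change was -0.24 for Cyba (95% confidence interval -1.10 to 0.61), -0.31 for Ncf1 (-1.04 to 0.42) and -0.75 for Ncf4 (-2.42 to 0.92).

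The membrane proteins shared by all leukocytes formed the one group in which no member overlapped between the groups of rats. All 5 were lower in each diabetic than in each non-diabetic rat, which held for 7.46% of all genes above 0 in any rat. Their summed level was 6.14 to 6.68 FPKM in the diabetic and 9.25 to 11.2 FPKM in the non-diabetic group. Of 5 genes tested, 4 were lower at an unadjusted p-value below 0.05 in limma, and Cd37 was not. At that threshold 4.99% of all genes tested were lower. Laptm5 (ENSRNOG00000011054), a lysosomal membrane protein that lowers surface receptors in leukocytes, was at 0.584, 0.561 and 0.584 FPKM in the diabetic testes, compared with 1.44, 1.54 and 1.51 FPKM in the non-diabetic testes. Both groups were tight, and the mean went from 1.5 ± 0.0560 to 0.576 ± 0.0131 FPKM (SD, n = 3 each). Its log2 difference of -1.24 (standard error 0.20) had the lowest p-value of the members (limma, adjusted p = 0.190). The adjusted p-value of Laptm5 in limma was 0.0173 with eBayes without the mean-variance trend and 0.0265 when only protein-coding genes were tested, and it lay between 0.164 and 0.566 under the other alternatives.

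Cd53 (ENSRNOG00000017874), a tetraspanin, was at 0.520, 0.602 and 0.590 FPKM in the diabetic testes, compared with 1.22, 1.15 and 1.20 FPKM in the non-diabetic testes. The groups did not overlap (log2 fold change -0.95, standard error 0.22, limma, adjusted p = 0.396). Ptprc (ENSRNOG00000000655), the leukocyte phosphatase CD45, was at 0.552, 0.356 and 0.601 FPKM in diabetic against 0.730, 1.18 and 0.857 FPKM in non-diabetic testes (log2 fold change -0.76, limma, adjusted p = 0.661). Cd48 (ENSRNOG00000004737), a ligand of natural killer and T cell receptors, was the most abundant of the group, at 2.86, 2.69 and 3.30 FPKM in the diabetic testes, compared with 4.28, 5.17 and 3.40 FPKM in the non-diabetic testes. Diabetic replicate 3 and non-diabetic replicate 3 almost met (log2 fold change -0.51, limma, adjusted p = 0.590). Cd37, another tetraspanin, was at 1.82, 1.93 and 1.6 FPKM in diabetic against 2.02, 2.11 and 2.28 FPKM in non-diabetic testes, a small difference with a log2 fold change of -0.25 (95% confidence interval -0.60 to 0.10). The p-value was 0.05 or above for Ptprc without diabetic replicates 1 and 2 and non-diabetic replicates 2 and 3, with log2 fold changes from -0.90 to -0.57 over all fits that left out 1 rat, and for Cd48 without replicates 1 and 2 of each group, with log2 fold changes from -0.66 to -0.37.

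**Figure D2:**
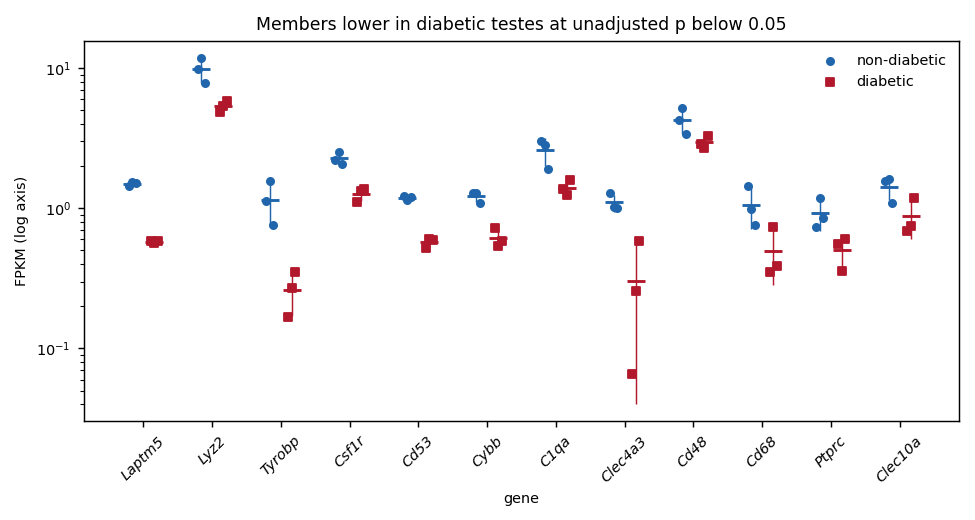
FPKM on a log axis of the 12 members that were lower in diabetic testes at an unadjusted p-value below 0.05 in limma, in order of p-value. Each point is 1 rat, horizontal bars are means and vertical bars are 1 SD (n = 3). The diabetic points (squares) of Laptm5 lie between 0.561 and 0.584 FPKM and those of non-diabetic rats (circles) between 1.44 and 1.54 FPKM, whereas the groups of Clec10a overlap.

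Genes of the leukocyte cytoskeleton and cytosol did not share a direction. Aif1 (ENSRNOG00000000853) was at 105, 109 and 101 FPKM in the diabetic testes, compared with 74.8, 114 and 73.9 FPKM in the non-diabetic testes. It was the one member with a log2 fold change above 0, 0.29, and non-diabetic replicate 2 was the highest rat of all, so the groups overlapped (95% confidence interval -0.086 to 0.67). Its level exceeded that of every other member in each rat. Without non-diabetic replicate 2 the log2 fold change of Aif1 was 0.50 and passed the threshold, and it was 0.19 without non-diabetic replicate 1 or replicate 3 and did not pass. Lcp1 (ENSRNOG00000010319), the actin bundler L-plastin, was at 7.76, 6.55 and 7.49 FPKM in diabetic against 9.68, 9.18 and 6.81 FPKM in non-diabetic testes, again with groups that overlapped (log2 fold change -0.22, 95% confidence interval -0.57 to 0.13). Without non-diabetic replicate 3 it was -0.37 and passed the threshold, whereas it was -0.12 without non-diabetic replicate 1 and did not pass.

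Coro1a (ENSRNOG00000019430), an actin regulator of leukocytes, lay just below the minimum level, with a mean of 0.496 FPKM over the 6 rats. It was measured at 0.343, 0.173 and 0.219 FPKM in the diabetic testes, compared with 0.964, 0.504 and 0.774 FPKM in the non-diabetic testes, and the groups did not overlap. The fit without a minimum level gave a log2 fold change of -1.29 (standard error 0.34, limma, adjusted p = 0.531). Lst1, a small leukocyte membrane protein, was listed at 0 in all 3 diabetic rats, while the non-diabetic rats had 0.120, 0.212 and 0 FPKM.

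Of the genes for macrophage surface identity, lysosome and secreted products, Lyz2 was lower and the others did not pass the test. Lyz2 (ENSRNOG00000005825), the lysozyme of macrophages, was at 4.85, 5.40 and 5.84 FPKM in the diabetic testes, compared with 9.89, 11.8 and 7.84 FPKM in the non-diabetic testes. All diabetic rats were below all non-diabetic rats, and the mean went from 9.84 ± 1.96 to 5.36 ± 0.496 FPKM (SD, n = 3 each; log2 fold change -0.85, standard error 0.16, limma, adjusted p = 0.273). Adgre1 (ENSRNOG00000046254), the macrophage receptor F4/80, was at 4.20, 3.10 and 3.12 FPKM in diabetic against 4.16, 4.0 and 3.23 FPKM in non-diabetic testes. Both groups covered nearly the same range, with a 95% confidence interval of -0.52 to 0.26 for the log2 fold change. Ms4a7, a tetraspan membrane protein of resident macrophages, had means of 0.594 and 0.760 FPKM in diabetic and non-diabetic rats, and Gpnmb, a lysosomal glycoprotein, 0.588 and 0.643 FPKM. F13a1, the A chain of coagulation factor XIII, was at 0.528, 0.358 and 0.264 FPKM in diabetic against 0.466, 1.10 and 0.648 FPKM in non-diabetic testes (log2 fold change -0.76, 95% confidence interval -1.71 to 0.20). Slc11a1, the iron and manganese transporter of phagosomes, lay below 0.5 FPKM with means of 0.165 and 0.236 FPKM. In each of these genes except Lyz2 the groups overlapped.

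**Figure D3:**
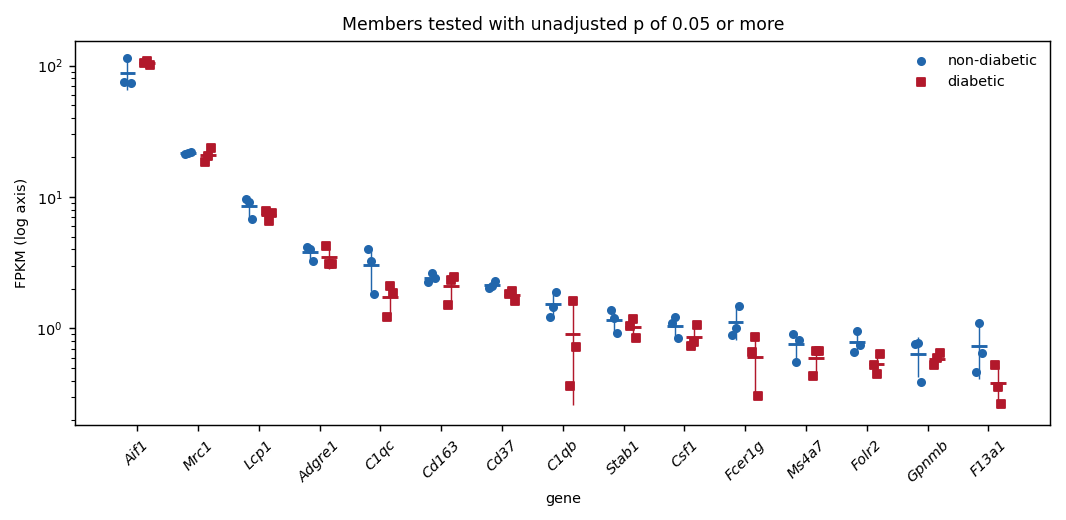
FPKM on a log axis of the 15 members tested whose unadjusted p-value in limma was 0.05 or more, in order of mean level. Each point is 1 rat, horizontal bars are means and vertical bars are 1 SD (n = 3). Aif1, Mrc1, Lcp1 and Adgre1 stand at the left with overlapping groups, and Cd37, Fcer1g and Folr2 are the genes whose groups do not overlap.

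The members differed in level as well, and their counts by level are given with no test. Of the 4 members above 5 FPKM, the groups were apart only for Lyz2, and the median log2 fold change was -0.14. Among the 12 members between 0.5 and 1 FPKM the groups were apart for 8 (median log2 fold change -0.80), and among the 7 between 1 and 2 FPKM for 4, with a median of -0.80. Over all genes of these levels the medians were -0.0042, -0.095 and -0.073, and the groups were apart in the lower direction for 6.39%, 10.3% and 11.3% of them. Between 2 and 5 FPKM the groups were apart for 1 of 4 members (median log2 fold change -0.37), and below 0.5 FPKM for 1 of 12, Coro1a (median -0.38). Over all genes of these 2 levels the medians were -0.043 and -0.050. The groups were apart in the lower direction for 9.65% and 5.57% of them.

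**Figure D4:**
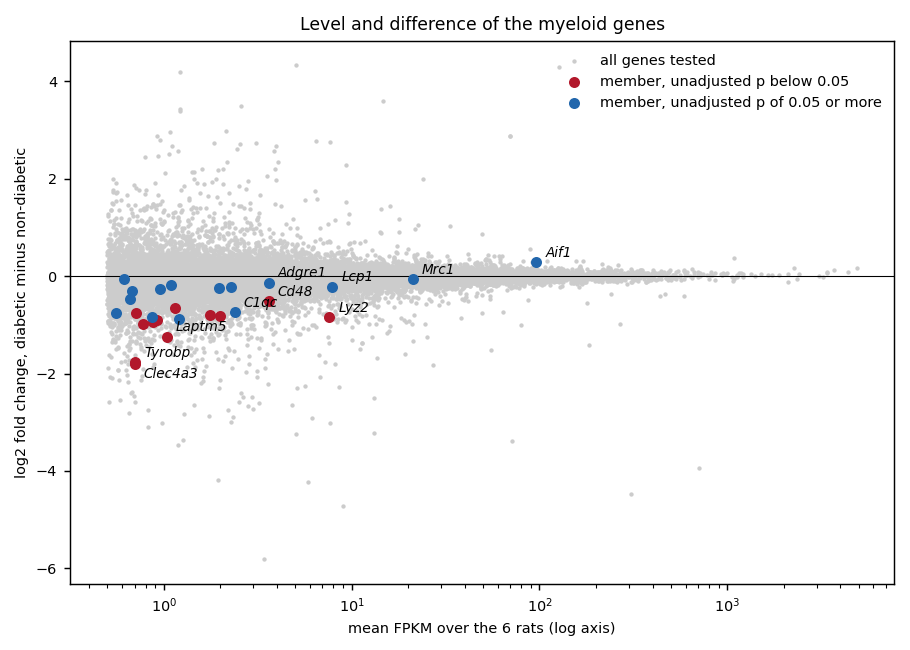
Log2 fold change (diabetic minus non-diabetic) against mean FPKM over the 6 rats on a log axis, for all 20338 genes tested (grey) and the 27 members among them, in red where the unadjusted p-value was below 0.05 and in blue otherwise. Aif1 and Mrc1 lie close to 0 at the right, Tyrobp and Clec4a3 lowest at -1.76 and -1.80, and Lyz2 is the red point with the highest level.

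Expressed within each rat relative to Mrc1, which removes the scaling between libraries, several of the lower genes kept their groups apart. Per 100 FPKM of Mrc1, Laptm5 was at 3.16, 2.75 and 2.48 FPKM in the diabetic against 6.77, 7.10 and 6.87 FPKM in the non-diabetic rats. Csf1r was at 5.99, 6.45 and 5.87 against 10.4, 11.7 and 9.37 FPKM on the same scale, and Lyz2 at 26.2, 26.4 and 24.8 against 46.7, 54.2 and 35.6 FPKM. None of these groups overlapped (exact permutation test, p = 0.1 each, the smallest that 3 rats against 3 allow). Cd163 was at 8.22, 11.5 and 10.4 against 10.7, 12.2 and 10.9 FPKM per 100 FPKM of Mrc1, which overlapped (exact permutation test, p = 0.4). Cd48, whose groups were apart in FPKM, was at 13.2 to 15.5 against 15.4 to 23.8 FPKM per 100 FPKM of Mrc1, so that its groups overlapped (exact permutation test, p = 0.2). Mrc1 itself had a log2 fold change of only -0.064, so these ratios largely repeat the comparison in FPKM and are no separate support. A ratio that differs between the groups describes a pair of genes together. It does not show which of them moved.

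The lower values were not carried by a single animal. Among the 27 members tested, diabetic replicate 1 was the lowest of the 6 rats for 13 genes, diabetic replicate 2 for 8 and diabetic replicate 3 for 4. The median log2 difference from the non-diabetic mean was -0.65, -0.43 and -0.52 in these rats. Non-diabetic replicate 3 was the lowest rat for the remaining 2 genes, and its median was -0.15, against 0.028 and 0.12 in the other non-diabetic rats. With 1 rat left out at a time, between 9 and 13 of the 26 to 28 members then tested had an unadjusted p-value below 0.05. All of these were lower, except that without non-diabetic replicate 2 they were 8 lower genes and Aif1. Over all genes tested, 1432 of 20365 had such a p-value, in either direction, without diabetic replicate 1. The count was 1131 of 20323 without diabetic replicate 2 and 1586 of 20369 without diabetic replicate 3.

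The promoters of several of these genes hold a known motif of myeloid genes. The core that PU.1 recognises was searched as GAGGAA, on both strands (TTCCTC on the other), in windows of 300 bases around the gene start, most of them upstream (RefSeq, GRCr8). Such a window was found for 27 of the 40 members, and 18 of them, 66.7%, held the motif, against 27.6% of 33469 promoters. It was present in 8 of the 10 windows of lower members and in 7 of the 10 windows of the other members tested. The 150 bases before the start are shown for Laptm5, Cd53, Cybb and Lyz2, which were lower, and for Mrc1, which did not pass the test, chosen after their values were seen. Capitals mark the motif, in the sense of the gene.
Laptm5 (chr5:148371730-148371879, plus strand): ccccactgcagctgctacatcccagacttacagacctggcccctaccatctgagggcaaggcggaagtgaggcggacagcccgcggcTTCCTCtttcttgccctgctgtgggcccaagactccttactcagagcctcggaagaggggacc
Cd53 (chr2:197087897-197088046, minus strand): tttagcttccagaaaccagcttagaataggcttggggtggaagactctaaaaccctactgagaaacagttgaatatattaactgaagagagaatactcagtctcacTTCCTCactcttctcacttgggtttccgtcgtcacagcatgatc
Cybb (chrX:16065066-16065215, minus strand): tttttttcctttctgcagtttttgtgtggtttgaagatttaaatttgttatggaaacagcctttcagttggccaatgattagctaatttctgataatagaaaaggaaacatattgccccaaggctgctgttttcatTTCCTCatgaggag
Lyz2 (chr7:54798012-54798161, minus strand): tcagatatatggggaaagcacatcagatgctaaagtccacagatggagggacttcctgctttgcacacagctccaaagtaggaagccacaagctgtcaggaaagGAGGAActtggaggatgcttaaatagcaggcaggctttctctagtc
Mrc1 (chr17:82157575-82157724, plus strand): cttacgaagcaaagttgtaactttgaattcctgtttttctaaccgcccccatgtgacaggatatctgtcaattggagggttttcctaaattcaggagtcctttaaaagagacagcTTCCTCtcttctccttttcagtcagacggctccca
The motif begins 63 bases before the start in Laptm5, 44 in Cd53, 14 in Cybb, 46 in Lyz2 and 35 in Mrc1. Genes that were lower and genes that did not pass the test both carried it, and a match of letters shows no binding.

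A second list of 51 myeloid genes was examined in the same way. Of these, 49 had a row in the table, 21 were tested and 28 lay below 0.5 FPKM. At an unadjusted p-value below 0.05 in limma, 1 of the 21 was lower, which is 4.76% beside the 4.99% of all genes tested, and 0 were higher. That gene was Cd36, a fatty acid and lipoprotein receptor that endothelial cells also make, at 2.24, 1.63 and 3.0 FPKM in the diabetic testes, compared with 4.37, 4.81 and 4.74 FPKM in the non-diabetic testes (log2 fold change -1.03, limma, adjusted p = 0.322). The median log2 fold change of the 21 was -0.16. In the fit without a minimum level, 4 of the 49 were lower (Cd36, Tlr7 and Ptpn6 among them), which is 8.16% beside 4.34% of all genes above 0 in any rat, and 1 was higher (Timd4), where 2.3% of all genes were. The groups were apart in the lower direction for 7 of the 49, or 14.3% beside 7.46% of all genes, and in the higher direction for 1, where 4.02% of all genes were.

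Among its growth factor and chemokine receptors, Cx3cr1 had means of 4.28 and 4.86 FPKM in diabetic and non-diabetic rats, with groups that overlapped. Of the 4 lineage factors tested, 0 passed. Irf8 had a log2 fold change of -0.45 (95% confidence interval -1.0 to 0.098) and Maf of -0.54 (-1.43 to 0.36). Of the 6 phagocytic and pattern receptors tested, Cd36 passed and 5 did not. Timd4, a phosphatidylserine receptor, was at 0.254, 0.117 and 0.164 FPKM in diabetic against 0, 0.0855 and 0.0198 FPKM in non-diabetic testes, the one gene of the list whose diabetic values were all above the others. Of the 8 signalling genes tested, 0 passed, and Hcls1, a substrate of the kinase LYN, was the one with groups apart, at means of 0.485 and 0.716 FPKM (95% confidence interval -1.24 to 0.26). Plcg2, a phospholipase downstream of the adaptors, was at 4.51 and 4.48 FPKM.

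Markers of Leydig cells were also lower in the diabetic rats. Summed over all 40 members, of which Aif1 and Mrc1 make up most, the level was 160.5 to 168.4 FPKM in the diabetic and 146.2 to 201.3 FPKM in the non-diabetic rats, so the groups overlapped. Without Aif1, Mrc1 and Marco, a choice made with their values known, the sum of the other 37 was 37.1 to 40.2 FPKM in the diabetic and 50.2 to 65.8 FPKM in the non-diabetic rats. Of 6 Leydig markers listed, 5 had a row, and all 5 (Cyp11a1, Cyp17a1, Star, Insl3 and Lhcgr) were lower at an unadjusted p-value below 0.05 in limma. At that threshold 4.99% of all genes tested were lower. The summed level of the Leydig markers was 26.8 to 55.4 FPKM in the diabetic and 81.6 to 115.3 FPKM in the non-diabetic rats. The part of this shift in the myeloid values was not tested.

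Markers of other leukocytes were low, as were most of the myeloid members. The B cell genes Ms4a1 and Cd79a had means of 2.30 and 1.38 FPKM over the 6 rats, beside 0.713 FPKM for Ptprc. Of the T cell markers 7 of 8 had a row, and their summed level was 8.30 to 10.6 FPKM in the diabetic and 7.03 to 8.06 FPKM in the non-diabetic rats. Lck had the highest mean level of them, and without it the sums were 2.42 to 3.37 FPKM and 3.52 to 5.33 FPKM, the diabetic rats below the others. The part of this in the pan-leukocyte values was not tested. For B cells (5 of 5 markers) the sums were 3.84 to 4.53 and 3.27 to 5.17 FPKM. For neutrophils (6 of 6) they were 1.20 to 1.39 and 0.834 to 1.90 FPKM, with S100a8 at 0 in all diabetic rats and S100a9, Mpo and Elane at 0 in some rats. Mast cell markers (5 of 6) summed to 0.176 to 0.580 and 0.132 to 0.372 FPKM, with Fcer1a at 0 in all rats.

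Markers of the remaining cell types overlapped between the groups in their sums. Endothelial markers (5 of 6 with a row) summed to 5.71 to 6.38 FPKM in the diabetic and 6.21 to 7.86 FPKM in the non-diabetic rats, Sertoli cell markers (7 of 7) to 280.4 to 294.8 and 233.7 to 295.6 FPKM, and peritubular and smooth muscle markers (5 of 5) to 72.8 to 79.2 and 74.7 to 94.3 FPKM. Germ cell markers (7 of 7) summed to 6248 to 6861 and 5643 to 7503 FPKM. Clu made up most of the Sertoli sum, with means of 261.7 and 245.5 FPKM in diabetic and non-diabetic rats. Prm1 and Tnp1, with means of 3682 and 2361 FPKM over the 6 rats, made up most of the germ cell sum. As single genes, Wt1 (means 13.5 and 12.2 FPKM) was higher in each diabetic than in each non-diabetic rat, and Des (2.78 and 3.35 FPKM) was lower. Erythrocyte markers (3 of 4 with a row) summed to 8.29 to 9.54 and 8.785 to 9.45 FPKM. Of these, Alas2 had a mean of 8.97 FPKM over the 6 rats. The globin gene Hbb was listed at 0 in all rats except diabetic replicate 2, at 0.0882 FPKM. None of the tested markers of these remaining cell types passed an unadjusted p-value of 0.05 in limma.

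**Figure D5:**
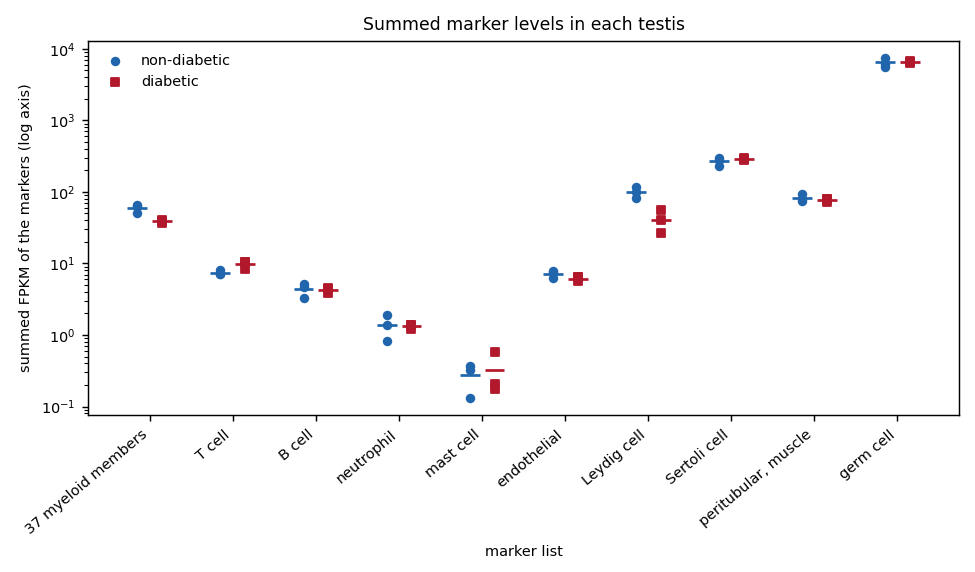
Summed FPKM on a log axis of the 37 myeloid members without Aif1, Mrc1 and Marco and of the marker lists of other cell types. Each point is 1 rat and horizontal bars are group means (n = 3). The diabetic points (squares) of the myeloid members, at 37.1 to 40.2 FPKM, and of the Leydig cell markers, at 26.8 to 55.4 FPKM, lie below all non-diabetic points (circles), whereas the sum over all 40 members, which is not drawn, overlapped between the groups.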

How the data were processed

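RNA-Seq values of 6 testes were used. The authors checked reads with FastQC, compared them with rRNA by BWA, aligned them with STAR and used StringTie for assembly. The table as deposited gives FPKM, 1 value per gene and rat. Tool versions and genome build are not given in the sources used here. The authors screened transcripts with DESeq2. Since the table holds no counts, log2(FPKM + 0.1) was compared with limma 3.58.1 (lmFit, eBayes with trend, two-sided, Benjamini-Hochberg adjustment) in R 4.3.3. The fit covered 20338 genes whose mean reached 0.5 FPKM, and a second fit the 30782 genes above 0. Exact permutation tests used scipy 1.17.1 in Python 3.11.15. Every member is accounted for, with values of each rat for those with an unadjusted p-value below 0.05 or groups apart, the highest of each sub-group, and all C1q, adaptor and oxidase genes. For the other lists up to 3 genes with the lowest p-values were to be named, and further ones (Il34, Cx3cr1, Timd4, Tlr7, Ptpn6, Plcg2, Cd55 and Cd59) were named after their values were seen. A few genes of these lists are not reported here. Members and lists were chosen with earlier results of these data known. All 40 symbols matched RefSeq (GRCr8). The alternatives were other pseudocounts (1 and 0.01), filters (none and 1 FPKM), scalings (TPM and median ratio) and eBayes settings, a replicate block, protein-coding genes only, summed symbols and leaving out each rat.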

Additional observations from a re-analysis of the deposited data

How the results depend on the processing

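The alternatives changed 1 choice at a time, and wherever a value moved the cause was not tested. Of 446 values of single members under the alternatives, 411 kept their direction and their side of an unadjusted p-value of 0.05, 21 lost the threshold, 10 gained it and 4 changed sign. The changes of sign were in genes near 0, Mrc1 at 0.019 and Gpnmb at 0.0051 without diabetic replicate 1, and Gpnmb at 0.065 without non-diabetic replicate 1 and at 0.080 without non-diabetic replicate 2. With each rat left out in turn, Mrc1 ranged from -0.16 to 0.019 and Gpnmb from -0.34 to 0.080. Laptm5, Lyz2, Tyrobp, Csf1r, Cd53, Cybb, C1qa and Clec4a3 stayed below 0.05 in every alternative in which they were tested. The count of members with an unadjusted p-value below 0.05 was 12. It was 5 of 15 members with a mean of at least 1 FPKM, which leaves fewer members, 11 under median-ratio scaling, and 9 to 13 with each rat left out. Over all genes, in either direction, 1300 of 17650 had such a p-value with a mean of at least 1 FPKM. Under median-ratio scaling 1540 of 20338 did. The count of members past an absolute log2 fold change of 1 was 3. It was 0 with a pseudocount of 1, 5 with a pseudocount of 0.01, 1 with a mean of at least 1 FPKM, 5 after rescaling to TPM and 3 to 7 with each rat left out. It was 7 without diabetic replicate 2 and without non-diabetic replicate 3, and 5 without diabetic replicate 1. The median log2 fold change of the members tested was -0.74, and -0.37 with a pseudocount of 1, which shrinks low genes. Over all genes tested, 253 passed the criterion. The number was 91 under a pseudocount of 1, 621 when no filter was used and 85 among protein-coding genes. A pseudocount of 0.01 gave 294 and TPM gave 292. Raising the minimum level to 1 FPKM gave 181, out of 17650 genes. Without diabetic replicates 1, 2 and 3 in turn, 324, 257 and 320 genes passed, and 28 members were tested each time. Without non-diabetic replicates 1, 2 and 3 the numbers were 335, 246 and 276, where 27, 26 and 27 members were tested.

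The replicate numbers are shared by different rats. The deviations of same-numbered rats from their group means correlated at 0.106, 0.0153 and 0.0979, so the numbers were not taken as pairs. With the replicate number as a block, 10 members had an unadjusted p-value below 0.05, since Clec10a and Ptprc no longer did, and 3 passed the criterion, and over all genes 1651 in place of 1517 had such a p-value and 284 passed the criterion. The lowest adjusted p-value of a member in limma was 0.190 in the main comparison and 0.413 with the block. Low FPKM limit what could be shown for the 13 members below 0.5 FPKM.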

Other observations

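Lck, a kinase gene listed among the T cell markers, was the 1 gene of that list with a log2 fold change above 0. It was measured at 5.21, 7.18 and 8.00 FPKM in the diabetic testes, compared with 3.52, 2.73 and 2.58 FPKM in the non-diabetic testes. All diabetic rats were above all non-diabetic rats (log2 fold change 1.17, limma, adjusted p = 0.190). Of the T cell receptor genes, Cd3e was at 0.477, 0.517 and 0.388 FPKM in diabetic against 0.642, 1.10 and 0.712 FPKM in non-diabetic testes (log2 fold change -0.68, 95% confidence interval -1.42 to 0.047), and Cd8a, a co-receptor of cytotoxic T cells, had means of 1.04 and 1.44 FPKM in diabetic and non-diabetic rats (log2 fold change -0.43, limma, adjusted p = 0.661). Cd2, an adhesion receptor of T cells, lay below 0.5 FPKM at 0, 0.122 and 0.110 FPKM in diabetic against 0.377, 0.524 and 0.270 FPKM in non-diabetic testes. Cd3d and Cd3g had groups that overlapped. Their log2 fold changes were -0.49 (95% confidence interval -1.78 to 0.81) and -0.078 (-1.04 to 0.88). Zap70, below 0.5 FPKM, overlapped as well (log2 fold change -0.35, -1.4 to 0.69).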
